A study of Danio rerio with 12 samples.

Results

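The Pdgf receptors and ligands of the zebrafish ovary are 8 genes, chosen by gene symbol: the receptor genes pdgfra and pdgfrb and the ligand genes pdgfaa, pdgfab, pdgfba, pdgfbb, pdgfc and pdgfd. All 8 of 8 had a row among 26171 named genes, and all 8 passed a filter on low counts that left 21407 genes. They were gathered with earlier results of these data known, in which pdgfra was higher in mutant ovary at 61 days post fertilization (dpf). The values of pdgfra in comparisons that use ovary of that age, mutant or wild type, are therefore given as a description, with no p-value, and support nothing.

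Platelet-derived growth factors are secreted dimers that bind receptor tyrosine kinases on mesenchymal cells and prompt them to divide, migrate and lay down matrix. In mammals the A, B and C chains bind the alpha receptor, and the B and D chains bind the beta receptor. The alpha receptor is a usual marker of fibroblasts and other stromal cells, and the beta receptor of pericytes and smooth muscle cells of vessel walls. In the rodent ovary Pdgf signals act on the theca and stroma around follicles. Zebrafish carry duplicated genes for the A and B chains.

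Polyadenylated RNA was sequenced from ovaries of 4 groups with 3 libraries each: adamts9 mutant at 61 dpf, wild type of the AB strain at 61 dpf, adamts9 mutant at 47 dpf, and AB wild type at 47 dpf. adamts9 codes for a matrix protease released from cells. The labels name neither the mutant allele nor its type, nor do they say whether a library is 1 fish or a pool. The ages are those of the sample labels, from which the series' design text differs. The labels name no treatment and describe 1 set of housing conditions for all fish. Where replicates are not separate animals, p-values measure the spread of these libraries alone, and that spread may be technical.

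Total counts were 16456573 to 38754785 per library. The adamts9 transcript was at 14.5 ± 1.58 CPM in mutant and 13.8 ± 3.35 CPM in wild type at 61 dpf, and at 14.3 ± 1.08 CPM in mutant and 16.7 ± 2.69 CPM in wild type at 47 dpf (SD, n = 3 each), so its level does not check the labels. The oocyte genes gdf9 (57.6 to 90.9 CPM) and bmp15 (147 to 538 CPM) were present in every library, and none of 14 oocyte markers was at 0 in a group. The 3 wild-type libraries of 61 dpf stood apart from the other 9, at 42.8 to 106 on the first principal component against -59.05 to 1.12. Their SD of log2 CPM had a median over genes of 0.443, against 0.229 to 0.302 in the other groups. CPM is the count per 1000000 counts of a library, after TMM scaling, and log2 fold changes, their standard errors (SE) and 95% intervals come from 1 edgeR quasi-likelihood model of all 12 libraries. A gene was called at a Benjamini-Hochberg adjusted p under 0.05 over all 21407 genes.

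pdgfra, the alpha receptor gene, stood at nearly the same level in 3 of the 4 groups and lower in wild-type ovary of 61 dpf. In ovary RNA, fewer cells of a type and less RNA per cell cannot be told apart. It was at 21.0, 27.9 and 27.2 CPM in mutant replicates 1, 2 and 3 of 61 dpf, against 9.44, 11.5 and 10.6 CPM in the wild-type replicates of that age. At 47 dpf it was at 24.3, 30.0 and 29.5 CPM in mutant, against 29.97, 23.5 and 27.1 CPM in wild type. The 61 dpf wild-type libraries were the 3 lowest of the 12 and overlapped no other group, and the other 3 groups overlapped each other. The group means ran from mutant at 47 dpf (27.9 ± 3.17) through wild type at 47 dpf (26.8 ± 3.26) and mutant at 61 dpf (25.4 ± 3.79) to wild type at 61 dpf (10.5 ± 1.02 CPM, SD, n = 3 each).

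At 61 dpf the fitted log2 fold change of pdgfra was 1.27 ± 0.19 (SE), a 2.42-fold higher level in mutant. Of the 8 members 1, pdgfra, was called in this comparison, where 1.82% of all genes were called. Nothing is read from that count, since pdgfra was known to differ when the genes were chosen. Without mutant replicate 2 or mutant replicate 3 of 61 dpf the count was 0, with log2 fold changes of pdgfra that stayed at 1.19 to 1.40 over the fits that left out 1 library each. In a fit of the 6 compared libraries alone it was 0 as well. The comparison of 61 with 47 dpf in wild type uses the same 3 low libraries. There the log2 fold change of pdgfra was -1.35 ± 0.19, which is a description and no second result. The threshold was passed in the fit of 12 libraries but not in a fit of the 6 compared libraries. Nothing is read from that call.

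In the comparisons that leave out the wild-type libraries of 61 dpf the values of pdgfra were smaller, with intervals on both sides of 0. Between mutant and wild type at 47 dpf, whose libraries had no part in the earlier result, the log2 fold change of pdgfra was 0.06 ± 0.18 (edgeR adjusted p = 0.998), with a 95% interval of -0.34 to 0.45. Between 61 and 47 dpf in mutant it was -0.14 ± 0.18, with an interval of -0.53 to 0.26. That comparison uses the mutant libraries of 61 dpf, which had a part in the earlier result, and is given as a description. The difference between the genotype contrasts of the 2 ages was 1.22 ± 0.26 for pdgfra (SE). It contains the contrast of 61 dpf that was known when the genes were chosen and is given as a description.

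pdgfrb, the beta receptor gene, was at 22.7, 44.7 and 24.4 CPM in mutant replicates 1, 2 and 3 of 61 dpf, against 13.5, 19.3 and 18.8 CPM in wild type. The groups did not overlap, with mutant replicate 2 well above the rest of the 12 libraries. Of the 8 members 2, pdgfra and pdgfrb, showed no overlap between the genotypes at 61 dpf, as did 27.9% of all genes. The log2 fold change of pdgfrb was 0.83 ± 0.29 (interval 0.21 to 1.46), and it was not called (edgeR adjusted p = 0.108). Without mutant replicate 2 of 61 dpf it was 0.44.

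At 47 dpf pdgfrb was at 28.4, 29.1 and 24.1 CPM in mutant, against 26.8, 20.3 and 15.5 CPM in wild type. The groups overlapped, and the log2 fold change was 0.38 ± 0.29 (adjusted p = 0.937, interval -0.24 to 1.01). In wild type pdgfrb averaged 17.2 ± 3.19 CPM at 61 dpf and 20.8 ± 5.70 CPM at 47 dpf (SD, n = 3 each), which differ by -0.28 ± 0.29 on the log2 scale (SE, adjusted p = 0.602). In mutant it averaged 30.6 ± 12.2 CPM at 61 dpf and 27.2 ± 2.72 CPM at 47 dpf, which differ by 0.17 ± 0.28 on the log2 scale (SE, adjusted p = 0.9997). The order of the means was mutant at 61 dpf, mutant at 47 dpf, wild type at 47 dpf and wild type at 61 dpf, and each neighbour in that order overlapped the next.

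**Figure D1:**
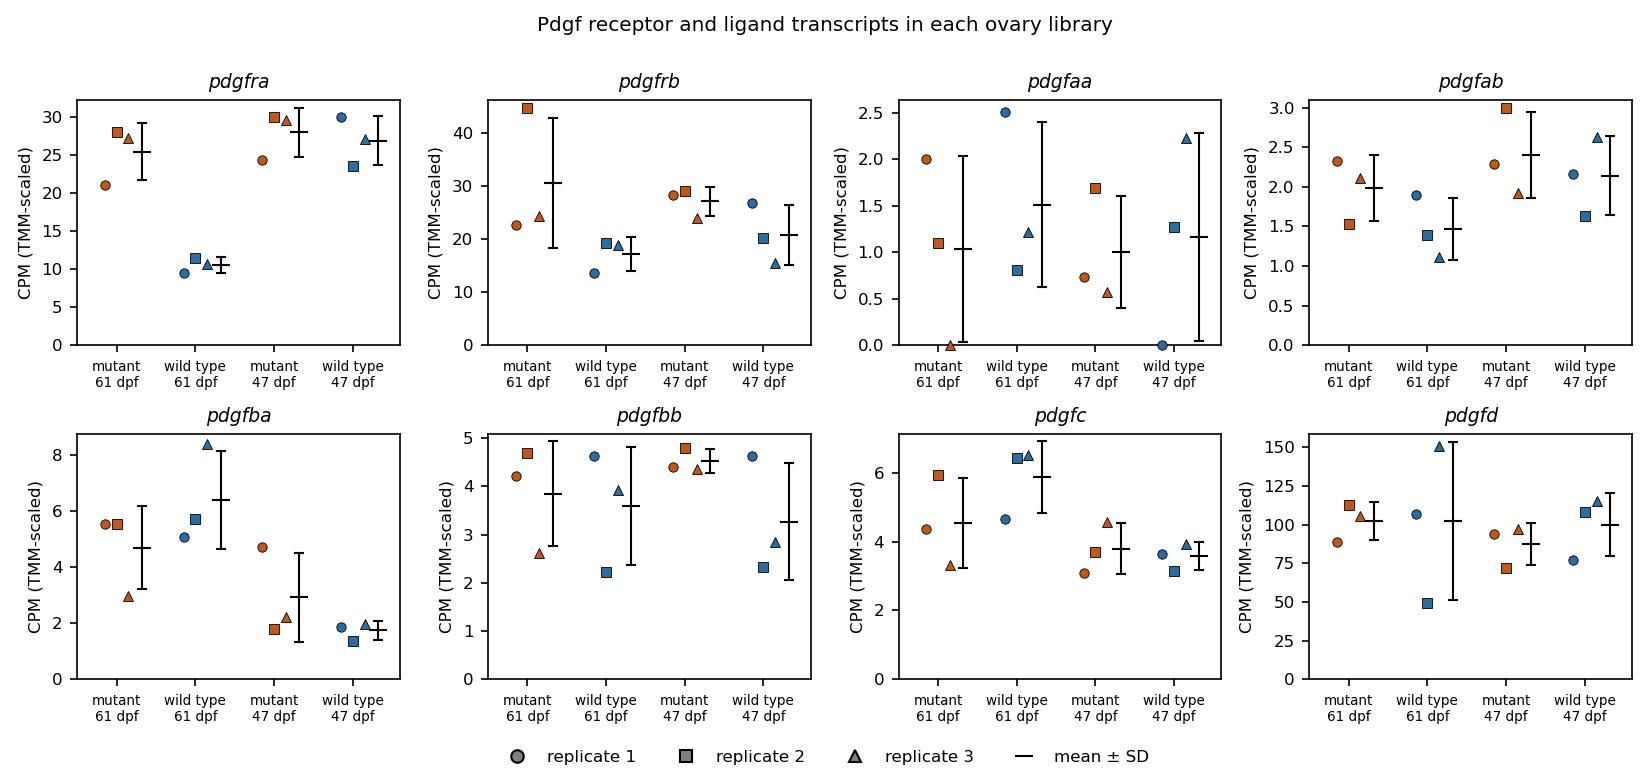
Level of each Pdgf gene in CPM (TMM-scaled) in each of the 12 ovary libraries by group, with 3 replicates per group and the mean ± SD as a bar beside them. The wild-type libraries of 61 dpf lie at 9.44 to 11.5 CPM for pdgfra, below all other libraries, and for pdgfba all 3 lie above the wild-type libraries of 47 dpf.

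The count ratio of pdgfra to pdgfrb within a library does not depend on how libraries are scaled. Its log2 value was -0.52, -0.75 and -0.83 in wild-type replicates 1, 2 and 3 of 61 dpf, against 0.16, 0.21 and 0.81 in wild type of 47 dpf. These do not overlap (difference of means -1.09). At 61 dpf the ratio was -0.11, -0.68 and 0.16 in mutant replicates 1, 2 and 3 and overlapped the wild-type range through mutant replicate 2, the library with the high pdgfrb level (difference 0.49). At 47 dpf the difference between mutant and wild type was -0.36 (exact two-sided permutation p = 0.3, where 3 against 3 can give no less than 0.1).

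**Figure D2:**
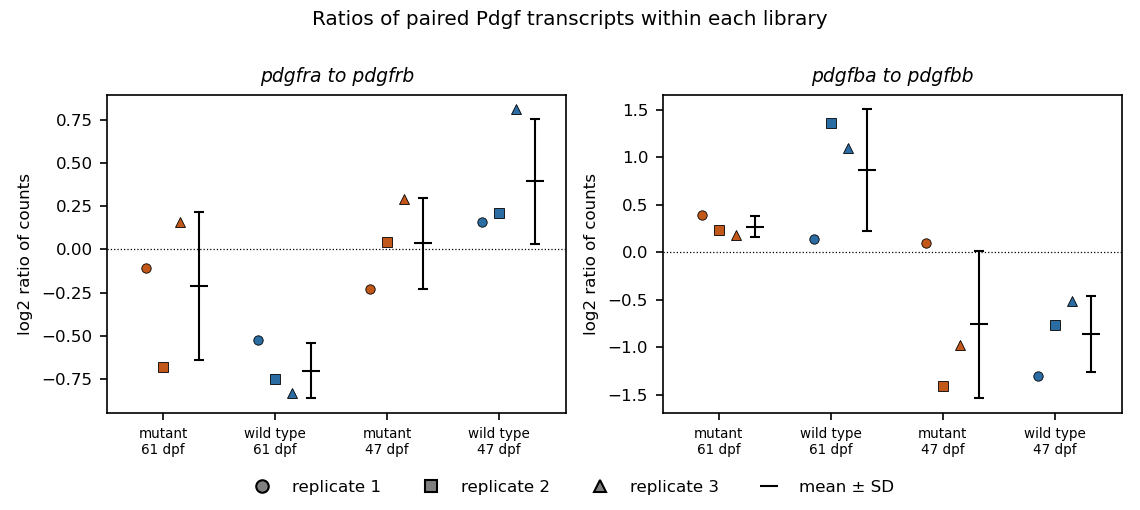
Log2 ratio of estimated counts within each library, for pdgfra to pdgfrb (left) and pdgfba to pdgfbb (right), by group with mean ± SD (n = 3). In wild type the libraries of the 2 ages do not overlap in either ratio, and at 61 dpf mutant replicate 2 lies among the wild-type values for the receptors.

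None of the 6 ligand genes was called between mutant and wild type at 61 dpf by edgeR or DESeq2, and none had an unadjusted p under 0.05, which 25.3% of all genes had. pdgfba, a B-chain gene, was at 5.55, 5.53 and 2.98 CPM in mutant and 5.08, 5.71 and 8.37 CPM in wild type at 61 dpf. At 47 dpf it was at 4.72, 1.81 and 2.23 CPM in mutant and 1.87, 1.37 and 1.98 CPM in wild type. The genotypes overlapped at both ages. The log2 fold changes of mutant against wild type were -0.44 ± 0.38 at 61 dpf (edgeR adjusted p = 0.496) and 0.75 ± 0.39 at 47 dpf (adjusted p = 0.790).

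With age in wild type pdgfba rose, to 6.39 ± 1.75 CPM at 61 dpf against 1.74 ± 0.33 CPM at 47 dpf (SD, n = 3 each), a difference on the log2 scale of 1.87 ± 0.40 (SE, interval 1.004 to 2.73, edgeR adjusted p = 0.0450). Every library of 61 dpf lay above every library of 47 dpf. In all, 2 of 8 members were called between the ages in wild type, pdgfra lower and pdgfba higher, where 1.52% of all genes were called, 0.729% higher and 0.789% lower. Nothing is read from pdgfra in that count, which rests on the same low libraries of 61 dpf. The call of pdgfba ended without wild-type replicate 1, 2 or 3 or mutant replicate 3 of 47 dpf, and without mutant replicate 1, 2 or 3 or wild-type replicate 3 of 61 dpf, with adjusted p between 0.0320 and 0.151 over the 12 such fits and log2 fold changes of 1.62 to 1.97. It also ended in a fit of the 6 compared libraries alone (adjusted p = 0.0991) and in one with a block for replicate number.

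In mutant pdgfba was at 4.68 ± 1.48 CPM at 61 dpf and 2.92 ± 1.57 CPM at 47 dpf, a log2 fold change of 0.68 ± 0.39 (adjusted p = 0.9997, interval -0.16 to 1.52). The ages overlapped there through mutant replicate 1 of 47 dpf, which at 4.72 CPM lay above mutant replicate 3 of 61 dpf. The difference between the genotype contrasts of the 2 ages was -1.19 ± 0.55 and was not called (adjusted p = 0.590). In order of means pdgfba ran from wild type at 61 dpf through mutant at 61 dpf and mutant at 47 dpf to wild type at 47 dpf, and each neighbour overlapped the next.

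pdgfbb, the other B-chain gene, was called in no comparison. It was at 4.22, 4.70 and 2.62 CPM in mutant and 4.62, 2.23 and 3.92 CPM in wild type at 61 dpf, and at 4.40, 4.80 and 4.37 CPM in mutant and 4.63, 2.33 and 2.84 CPM in wild type at 47 dpf. All 4 groups overlapped. In wild type the log2 fold change of 61 against 47 dpf was 0.14 ± 0.35 (adjusted p = 0.840, interval -0.61 to 0.89). The log2 ratio of pdgfba to pdgfbb averaged 0.86 ± 0.64 at 61 dpf and -0.86 ± 0.40 at 47 dpf in wild type (SD, n = 3 each), with no overlap (exact two-sided permutation p = 0.1, the smallest possible). In mutant the same ratio averaged 0.27 ± 0.11 at 61 dpf and -0.76 ± 0.78 at 47 dpf, also with no overlap (exact permutation p = 0.1). Both the receptor and the B-chain ratio were chosen after the levels had been seen.

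pdgfc encodes a ligand with an added CUB domain that must be cut away before it can bind its receptor. It was at 4.35, 5.94 and 3.32 CPM in mutant and 4.66, 6.44 and 6.51 CPM in wild type at 61 dpf, and at 3.10, 3.69 and 4.57 CPM in mutant and 3.65, 3.13 and 3.93 CPM in wild type at 47 dpf. The wild-type libraries of 61 dpf lay above those of 47 dpf. The log2 fold change between them was 0.72 ± 0.27 (interval 0.13 to 1.31), which was not called (edgeR adjusted p = 0.160). Of the members 3, pdgfra, pdgfba and pdgfc, showed no overlap between the ages in wild type, as did 22.8% of all genes. Between genotypes pdgfc had log2 fold changes of -0.36 ± 0.27 at 61 dpf (adjusted p = 0.422) and 0.09 ± 0.27 at 47 dpf (adjusted p = 0.998).

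pdgfd, which encodes the second CUB-domain ligand, gave the most counts of the 8 genes, from 1043 to 3949 per library, although counts of different genes are not compared as levels because transcript lengths are not in the files. It was at 88.6, 113 and 106 CPM in mutant and 107, 49.3 and 151 CPM in wild type at 61 dpf. At 47 dpf it was at 93.6, 71.8 and 96.9 CPM in mutant and 76.9, 108 and 115 CPM in wild type. All groups overlapped, and wild type at 61 dpf held both the lowest and the highest library. The log2 fold change of mutant against wild type at 61 dpf was -0.00016 ± 0.32 (adjusted p = 0.9998), with an interval of -0.70 to 0.70, and it ran from -0.34 without wild-type replicate 2 to 0.38 without wild-type replicate 3. At 47 dpf it was -0.19 ± 0.32 (adjusted p = 0.995).

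The A-chain genes had few counts. pdgfab was at 2.32, 1.53 and 2.11 CPM in mutant and 1.89, 1.39 and 1.12 CPM in wild type at 61 dpf, and at 2.29, 3.001 and 1.92 CPM in mutant and 2.16, 1.64 and 2.63 CPM in wild type at 47 dpf, on 26 to 70 counts per library. The groups overlapped, with log2 fold changes of mutant against wild type of 0.43 ± 0.32 at 61 dpf (adjusted p = 0.418) and 0.16 ± 0.31 at 47 dpf (adjusted p = 0.997). In wild type 61 against 47 dpf gave -0.54 ± 0.32 (adjusted p = 0.340).

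pdgfaa was listed at 0 in 2 libraries and at up to 92.8 counts in the others, and its count was not whole in any of those 10 libraries. It was at 2.003, 1.099 and 0 CPM in mutant and 2.51, 0.805 and 1.22 CPM in wild type at 61 dpf, and at 0.730, 1.69 and 0.574 CPM in mutant and 0, 1.27 and 2.23 CPM in wild type at 47 dpf. A count of 0 allows up to 0.167 CPM in mutant replicate 3 of 61 dpf and 0.120 CPM in wild-type replicate 1 of 47 dpf, for counting error only. Its 95% intervals were the widest of the 8 genes, from -2.93 to 1.86 for mutant against wild type at 61 dpf (log2 fold change -0.54 ± 1.099, adjusted p = 0.797) and from -2.71 to 2.20 at 47 dpf (-0.26 ± 1.13, adjusted p = 0.998). A change of 2-fold either way lay within both intervals.

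Across the 8 genes, edgeR and DESeq2 both called 0 members at 47 dpf, where 0.0888% of all genes were called by edgeR. No member, and 6.92% of all genes, had an unadjusted p under 0.05 there. Between the ages in mutant the count was also 0 by both tools, and edgeR called 0% of all genes. At an unadjusted p under 0.05 there were 0 members and 3.83% of all genes, with nothing read from pdgfra here. For the difference between the genotype contrasts edgeR called 0 members and 0% of all genes, and DESeq2 called 1, pdgfra. At an unadjusted p under 0.05 that difference took in 2 members, pdgfra and pdgfba, and 8.46% of all genes, and nothing is read from pdgfra in either count. The median log2 fold change of the members was 0.05 at 61 dpf, against 0.01 over all genes, and 0.13 at 47 dpf, against 0.02.

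**Figure D3:**
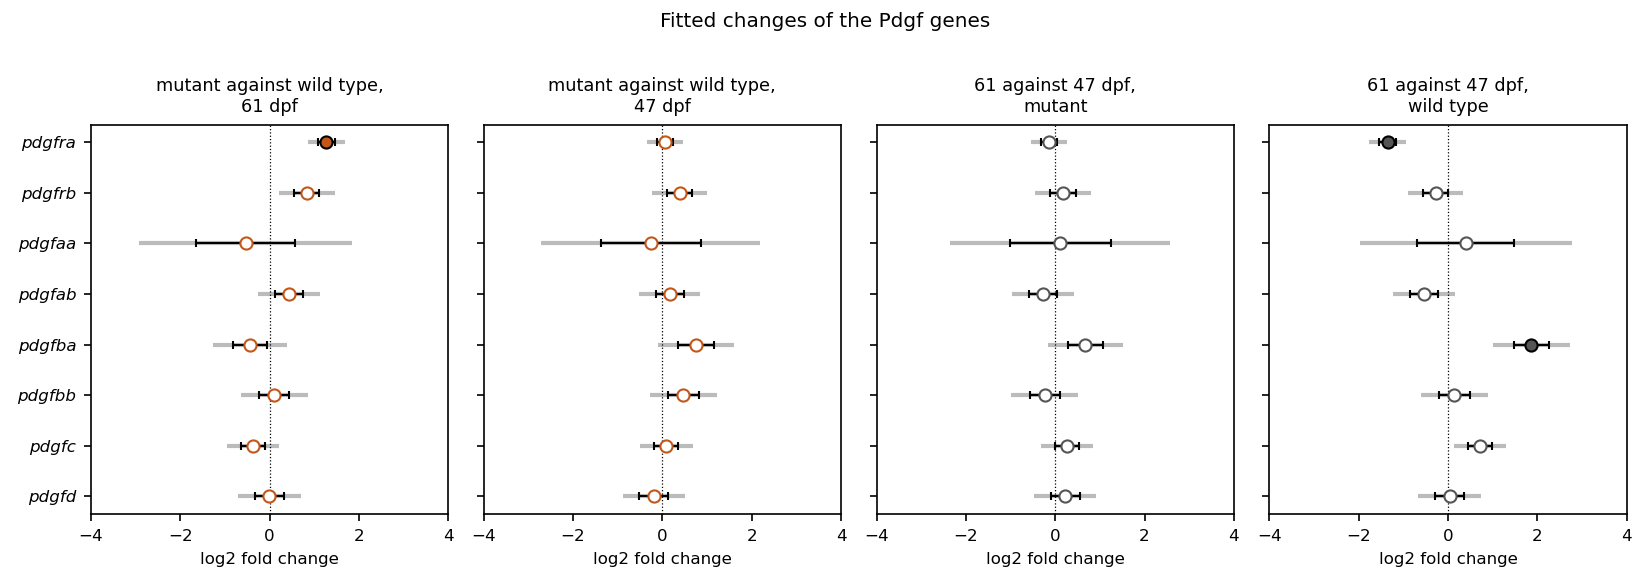
Log2 fold change of each Pdgf gene (x axis) in 4 comparisons, with SE (black bars) and 95% interval (grey bars) from the edgeR fit of 12 libraries, filled where the adjusted p over all genes was under 0.05. The filled points are pdgfra at 61 dpf (1.27) and, for 61 against 47 dpf in wild type, pdgfra (-1.35) and pdgfba (1.87). Both filled pdgfra points rest on the same wild-type libraries of 61 dpf and are a description only.

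The lists of other genes below were, like the Pdgf genes, chosen with earlier results of these data known. Their counts, calls and p-values are a description and no independent support. Of the proteases that free active Pdgf ligands, all 11 of 11 listed genes were tested, and edgeR called 0 between genotypes at either age. At an unadjusted p under 0.05, 3 were higher and 1 lower in mutant at 61 dpf, where 13.2% of all genes were higher and 12.2% lower, and DESeq2 called 1 higher. At 47 dpf 1 was higher at an unadjusted p under 0.05, as were 5.12% of all genes, with 1.80% lower, and DESeq2 called 0. plat encodes tissue plasminogen activator, which in mammals cuts the C-chain dimer. It was at 2.82 ± 0.71 CPM in mutant and 1.18 ± 0.30 CPM in wild type at 61 dpf (SD, n = 3 each), with a fitted log2 difference of 1.27 ± 0.32 (SE, adjusted p = 0.0625). For plaub, a urokinase gene, the log2 fold change was 0.64 ± 0.26 (adjusted p = 0.158). The list's median was 0.22 at 61 dpf and -0.03 at 47 dpf.

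Among 48 adaptors, enzymes and brakes downstream of the receptors, 46 were tested and edgeR called 0 at either age. At 61 dpf 1 was higher and 11 were lower in mutant at an unadjusted p under 0.05, against 13.2% higher and 12.2% lower over all genes. DESeq2 called 1 higher and 6 lower, and 2387 over all genes. At 47 dpf 4 were higher at an unadjusted p under 0.05, against 5.12% of all genes, and DESeq2 called 0. The list's median was -0.12 at 61 dpf, where 14 of 46 log2 fold changes were positive, against 50.4% of all genes. For pik3cb, a catalytic subunit of phosphoinositide 3-kinase, the log2 fold change was 0.96 ± 0.24 (adjusted p = 0.0593). gab1, a docking protein gene, was at 36.2 ± 7.13 CPM in mutant and 60.9 ± 3.36 CPM in wild type, a log2 fold change of -0.75 ± 0.20 (adjusted p = 0.0651).

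Of 26 related receptors, ligands and co-receptors of the Kit, Csf1r and Vegf receptor families, 23 were tested and edgeR called 0 at either age. At 61 dpf 3 were higher and 2 lower at an unadjusted p under 0.05 (DESeq2 called 1 higher), and at 47 dpf 5 were higher (DESeq2 called 2 higher). Over all genes 13.2% were higher and 12.2% lower at that threshold at 61 dpf, and 5.12% were higher at 47 dpf. At 61 dpf the log2 fold change was 1.74 ± 0.57 (adjusted p = 0.0991) for csf1a, a macrophage growth factor gene, and for nrp2b, a neuropilin gene, it was 0.86 ± 0.29 (adjusted p = 0.105). In a RefSeq gene table of another assembly kita was a coding neighbour of pdgfra and csf1ra of pdgfrb, and no member shared a chromosome with adamts9. kita was at 1.62 ± 0.99 CPM in mutant and 2.76 ± 1.32 CPM in wild type at 61 dpf (log2 fold change -0.76 ± 0.48, adjusted p = 0.341). csf1ra was at 9.26 ± 2.56 CPM in mutant and 5.44 ± 2.57 CPM in wild type (0.77 ± 0.47, adjusted p = 0.327).

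Markers of the cells that usually carry these receptors were set beside them, as a description only. Of 28 stromal markers 25 were tested, and their log2 fold changes had medians of 0.61 at 61 dpf and 0.50 at 47 dpf. At 61 dpf 1 was higher and 0 lower, where 1.22% of all genes were called higher and 0.598% lower. It was col6a3, a collagen chain gene, at 36.2 ± 2.80 CPM in mutant and 19.4 ± 2.61 CPM in wild type (0.90 ± 0.20, edgeR adjusted p = 0.0478). At an unadjusted p under 0.05, 12 were higher and 1 lower at 61 dpf (13.2% and 12.2% of all genes), and DESeq2 called 7 and 1. The lower one at that unadjusted p was thy1 (-1.05 ± 0.25, edgeR adjusted p = 0.0553). It was at 60.5 ± 4.72 CPM in mutant and 125 ± 24.8 CPM in wild type, which are part of the summed level below. At 47 dpf edgeR called 0, with 10 higher and 1 lower at an unadjusted p under 0.05 (5.12% and 1.80% of all genes) and 6 higher by DESeq2. The summed level of the list was 350 to 508 CPM in mutant and 306 to 393 CPM in wild type at 61 dpf, with overlap. It was 496 to 701 CPM in mutant and 359 to 422 CPM in wild type at 47 dpf, with none. For 61 against 47 dpf in wild type, where pdgfra was lower, the stromal median was -0.27, against 0.02 over all genes. Of 25 values 9 were positive, against 51.5% of all genes. edgeR called 0, against 1.52% of all genes, and DESeq2 called 0 higher and 3 lower. At an unadjusted p under 0.05, 2 were higher and 7 lower. The share of all genes at that threshold is not given for this comparison, and nothing is read from these counts. Between these ages in mutant, where the log2 fold change of pdgfra was -0.14, the stromal median was -0.29. There edgeR and DESeq2 called 0, and 0 were higher and 6 lower at an unadjusted p under 0.05, against 3.83% of all genes in either direction.

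Of 15 markers of pericytes and smooth muscle 14 were tested, and 1 was called higher in mutant at 61 dpf (1.22% of all genes). It was abcc9, a subunit of a potassium channel of pericytes (3.56 ± 0.65 CPM in mutant and 1.62 ± 0.19 CPM in wild type, log2 fold change 1.13 ± 0.26, adjusted p = 0.0485). There 3 were higher and 2 lower at an unadjusted p under 0.05 (13.2% and 12.2% of all genes), and DESeq2 called 2 higher and 1 lower. The lower ones were lmod1b, a smooth muscle leiomodin gene (-1.93 ± 0.63, adjusted p = 0.0952), and acta2, the smooth muscle actin gene (-0.89 ± 0.31, adjusted p = 0.111). 1 untested marker, cnn1a, was at 0 in all mutant libraries. The list's median was 0.10 at 61 dpf, and its summed level was 240 to 292 CPM in mutant and 224 to 304 CPM in wild type. At 47 dpf the median was 0.46, edgeR and DESeq2 called 0, and 3 were higher at an unadjusted p under 0.05 (5.12% of all genes). The sum there was 201 to 249 CPM in mutant and 137 to 162 CPM in wild type. In the comparison of 61 with 47 dpf in wild type, where pdgfba was higher, the mural sums above did not overlap either. acta2 was called there (1.49 ± 0.32, adjusted p = 0.0450), and lost the call in 14 of 18 alternatives, among them all fits without 1 library other than that without wild-type replicate 1 of 61 dpf. Of the 14 mural markers 10 had positive values there, against 51.5% of all genes, with a median of 0.44. The negative ones were kcnj8 (-1.68 ± 0.43, adjusted p = 0.0686), abcc9 (-0.61 ± 0.26, adjusted p = 0.196), notch3 (-0.39) and ndufa4l2a (-0.29), none called. The mural markers thus did not move as 1 set. In the same comparison 3 of 8 red blood cell markers fell, where 0.789% of all genes were called lower: slc4a1a (-1.99), hbba1 (-3.27) and hbaa1 (-3.53), with summed levels of 74.4 to 144 CPM at 61 dpf and 307 to 584 CPM at 47 dpf. Each of the 3 lost the call without wild-type replicate 1 or 2 of 47 dpf or wild-type replicate 3 of 61 dpf, hbba1 and hbaa1 also without wild-type replicate 3 of 47 dpf, and hbaa1 without mutant replicate 3 of 61 dpf. Of 11 granulosa cell markers, fshr, which encodes the Fsh receptor, was higher there (1.17, adjusted p = 0.0385), and gsdf, a gonadal growth factor gene, was lower (-2.10, adjusted p = 0.0239). Over all genes 0.729% were called higher and 0.789% lower there. gsdf lost the call in 4 of 18 alternatives, among them the fits without wild-type replicate 1 or 2 of 47 dpf or wild-type replicate 3 of 61 dpf. fshr lost it in 12 of 18, among them all fits without 1 library other than those without wild-type replicate 1 of 61 dpf or mutant replicate 1 or 2 of 47 dpf. The 8 red blood cell markers had a median log2 fold change of -2.58 between these ages in wild type, where DESeq2 called 6 lower. In mutant their median was -3.34, with 0 called by edgeR and 5 lower by DESeq2. Their summed levels in mutant were 81.3 to 139 CPM at 61 dpf and 189 to 862 CPM at 47 dpf. The part of mural, red blood and granulosa cells in the levels of pdgfra and pdgfba was not tested.

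Endothelial cells are a main source of B-chain ligand in vertebrate vessels. All 16 of their markers were tested and edgeR called 0 at either age. At 61 dpf 4 were higher at an unadjusted p under 0.05 (2 by DESeq2), as were 13.2% of all genes, and the median was 0.26. pecam1 (1.01 ± 0.23, adjusted p = 0.0506) and vwf (1.19 ± 0.30, adjusted p = 0.0625) had the smallest p-values. Of the 16 log2 fold changes 12 were positive at 61 dpf, against 50.4% of all genes. The negative ones were clec14a (-0.70), sox7 (-0.68), kdrl (-0.29) and cldn5b (-0.08), none called. At 47 dpf 16 of 16 log2 fold changes were positive (52.7% over all genes), with a median of 0.28. There 1 was higher at an unadjusted p under 0.05 (5.12% of all genes) and 0 by DESeq2. The summed level was 82.6 to 96.2 CPM in mutant and 69.1 to 93.2 CPM in wild type at 61 dpf, with overlap, and 85.1 to 94.2 CPM in mutant and 65.6 to 72.8 CPM in wild type at 47 dpf, with none. Positive values at 47 dpf were not particular to endothelium. Liver (12 of 12, median 1.76) and pancreas markers (12 of 12, median 2.19) were all positive there too. Their sums differed widely among mutant replicates 1, 2 and 3 of 47 dpf, at 142, 16.9 and 23.3 CPM for liver and 1073, 27.6 and 2353 CPM for pancreas. Most values were also positive for related receptors and ligands (21 of 23) and for mural (12 of 14), macrophage (12 of 14) and stromal markers (19 of 25). Fewer were positive among signalling genes (18 of 46), steroid cell markers (4 of 10) and red blood cell markers (3 of 8).

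**Figure D4:**
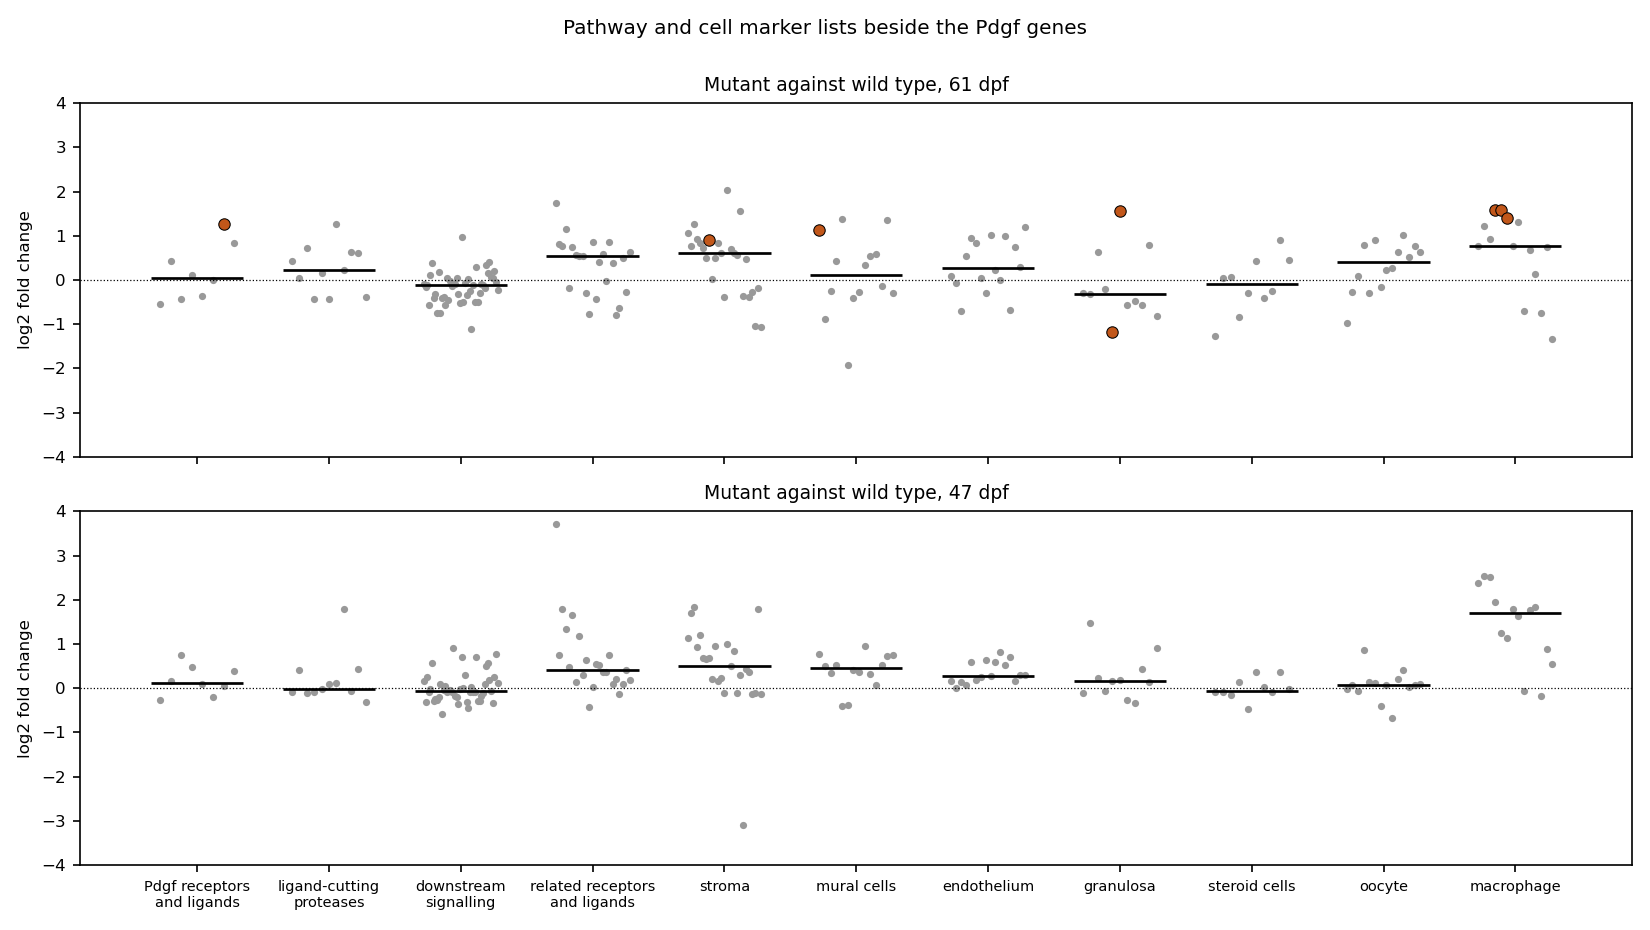
Log2 fold change of mutant against wild type at 61 dpf (top) and 47 dpf (bottom) for each tested gene of the Pdgf set and of 10 pathway and cell marker lists. Each point is a gene, lines are list medians, and large points passed an adjusted p under 0.05. At 61 dpf the stromal median is 0.61 and the signalling median is -0.12, and at 47 dpf no point is called.

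Markers of other cell types also differed in the same comparison. Of 14 macrophage and neutrophil markers 3 were called higher at 61 dpf (1.22% of all genes), cd74a (1.57), cd74b (1.59) and coro1a (1.39). In all, 5 were higher and 0 lower at an unadjusted p under 0.05 (13.2% and 12.2% of all genes). DESeq2 called 4 higher, and the median was 0.76, with 11 of 14 positive. The 3 negative values were those of spi1b (-1.34), mpx (-0.74) and lyz (-0.71), none called. The list's summed level was 174 to 192 CPM in mutant and 71.2 to 108 CPM in wild type at 61 dpf, and 134 to 312 CPM in mutant and 53.0 to 84.3 CPM in wild type at 47 dpf. Of 11 granulosa cell markers 1 was called higher, gsdf (1.55), and 1 lower, fshr (-1.18), at 61 dpf (1.22% and 0.598% of all genes). The oocyte list summed to 8566 to 11002 CPM in mutant and 4936 to 11295 CPM in wild type at 61 dpf. At 47 dpf edgeR called 0 macrophage and 0 granulosa markers, with 11 and 1 higher at an unadjusted p under 0.05 (5.12% of all genes) and 6 and 0 by DESeq2. The part of these cell types in the levels of the Pdgf genes was not tested. col6a3, abcc9, cd74a, cd74b, coro1a, gsdf and fshr each lost the call without any 1 mutant library of 61 dpf or without wild-type replicate 3 of that age. The calls held in 3 to 9 of 18 alternatives, each with the same sign in all 18.

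In the 7 lists left, edgeR called 0 genes between genotypes at 61 dpf. At an unadjusted p under 0.05 there were 1 higher and 1 lower steroid cell marker (both also by DESeq2), 2 higher and 1 lower oocyte marker (both counts the same by DESeq2), 1 higher adipocyte marker, 1 higher and 1 lower muscle marker, 1 higher liver marker, 0 pancreas markers and 1 higher red blood cell marker, and DESeq2 called 0 of the last 5 lists. At 47 dpf edgeR and DESeq2 called 0 in these lists, and at an unadjusted p under 0.05 there were 1 lower oocyte, 2 higher adipocyte, 5 higher muscle, 5 higher liver and 1 lower red blood cell marker. Over all genes 13.2% were higher and 12.2% lower at that threshold at 61 dpf, and 5.12% and 1.80% at 47 dpf. The steroid markers of 61 dpf were nr5a1b (0.91 ± 0.29, edgeR adjusted p = 0.0906) and cyp11a1 (-1.27 ± 0.42, adjusted p = 0.0992). cyp11a1 averaged 175 CPM in mutant and 421 CPM in wild type. Of 10 steroid markers 5 had positive log2 fold changes at 61 dpf, with a list median of -0.10, so they did not move as 1 set. Steroid markers, cyp11a1 included, summed to 328 to 483 CPM in mutant and 516 to 780 CPM in wild type at 61 dpf, with no overlap. Their sums at 47 dpf were 328 to 447 CPM and 346 to 489 CPM, with overlap. Liver markers summed to 14.7 to 52.4 CPM in mutant and 10.6 to 19.5 CPM in wild type at 61 dpf, muscle markers to 25.0 to 29.0 CPM in mutant and 21.7 to 35.7 CPM in wild type, and pancreas markers to 9.76 to 749.7 CPM in mutant and 132 to 689 CPM in wild type. At 47 dpf the sums were 16.9 to 142 CPM in mutant and 12.7 to 23.3 CPM in wild type for liver, 24.3 to 291 CPM in mutant and 21.1 to 50.3 CPM in wild type for muscle, and 27.6 to 2353 CPM in mutant and 5.84 to 607 CPM in wild type for pancreas, all with overlap.

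Genes whose levels ran most like those of the receptors were found by Pearson correlation of log2 CPM over the 12 libraries. The search took in 12144 genes that averaged 1 or more on that scale and passed a filter on symbols. The filter dropped clone, locus and date names, symbols in capitals, and those ending in a point and digits. Symbols starting with si, im, sb, wu or zgc were dropped as well. The value is a description of libraries that share depth and group structure. For pdgfra they were gucy2f (r = 0.97), znf536 (0.96), khk (0.96), tet3 (0.95) and scrn2 (0.95). tet3, a DNA demethylation enzyme gene, was at 104 CPM in mutant and 33.0 CPM in wild type at 61 dpf, and at 129.7 CPM in both at 47 dpf (means, n = 3). For pdgfrb they were tmem129 (0.93), tgfb5 (0.92), tcf7l2 (0.91), pdlim5a (0.91) and slc16a6b (0.91). tgfb5 averaged 8.23 CPM in mutant and 4.13 CPM in wild type at 61 dpf, and 6.56 CPM in mutant and 5.24 CPM in wild type at 47 dpf. No Pdgf gene was among the 5 nearest of either receptor.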

How the data were processed

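Estimated counts by gene symbol, as deposited by the authors, were used for 12 ovary libraries. kallisto and GRCz11 are named in the submitters' processing notes, while versions, annotation and gene-level summing were not given in the sources used here. As deposited, 45.4% of the estimated counts were not whole (tolerance 1e-06), and counts of similar paralogs may be divided between them. A line with a blank name, holding up to 0.000113% of each total, was dropped. Counts were rounded, filtered with filterByExpr on 4 groups, scaled by TMM and fitted in edgeR 4.0.16 (quasi-likelihood, R 4.3.3) with a group factor over 12 libraries. The contrasts were genotype at each age, the difference between these, and age in each genotype. The fit was tested on simulated data. Alternatives were other scaling, no filter, DESeq2 1.42.0, only the compared libraries, a replicate block and leaving out each library. The 8 genes and 15 other lists (247 genes, 244 with a row) were chosen with earlier results of these data known. Named list genes were those called between genotypes, up to 4 per list, or the 2 with the smallest p at 61 dpf. kita and csf1ra were named for position. The values of acta2, kcnj8, notch3, ndufa4l2a, thy1, slc4a1a, hbba1, hbaa1, lmod1b, spi1b, mpx, lyz, tet3 and tgfb5 were chosen after they were seen. Those of clec14a, sox7, kdrl and cldn5b were also chosen after being seen.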

Additional observations from a re-analysis of the deposited data

How the results depend on the processing

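Under the alternatives the count of members called at 61 dpf was 0 with only the compared libraries and 0 with the replicate block, and 0 to 1 without 1 library. Between the ages in wild type it was 0 and 0 in those fits and 1 to 2 without 1 library, against 2. For the difference between genotype contrasts DESeq2 gave 1, pdgfra, from which nothing is read. Counts at 47 dpf and between ages in mutant were 0 throughout. Same-numbered libraries did not deviate together in every pair (correlations -0.20 to 0.25). The labels state no shared source behind a number, and these correlations cannot exclude one. In mutant, each library of 61 dpf correlated best with its own number at 47 dpf, a hint from the data only. The block took the calls over all genes to 23 from 390 at 61 dpf and to 26 from 325 between ages in wild type, and the compared libraries alone gave 20 and 26. DESeq2 called 2387 and 1670, and 173 at 47 dpf against 19. Its counts in the lists above are to be set beside these totals, not beside the shares at other thresholds.

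No called member turned its direction in any alternative run. Log2 fold changes that turned, none of them called, were pdgfd at 61 dpf (0.22 with upper-quartile scaling, 0.12 with the block) and between ages in wild type (-0.10 and -0.077), and pdgfaa at 47 dpf (0.34 with the block) and between ages in mutant (-0.37 with the block). Upper-quartile scaling moved the median of all genes at 61 dpf to 0.20 from 0.01. Without 1 library, pdgfaa ran from -1.38 to 0.085 at 61 dpf, -0.86 to 0.61 at 47 dpf, -1.15 to 0.38 for their difference, -0.71 to 0.70 between ages in mutant and -0.25 to 1.27 in wild type. pdgfd ran from -0.34 to 0.38 at 61 dpf, -0.14 to 0.59 for the difference and -0.36 to 0.37 between ages in wild type. pdgfbb ran from -0.15 to 0.35 at 61 dpf and -0.13 to 0.47 between ages in wild type. At 47 dpf pdgfra ran from -0.034 to 0.14, pdgfab from -0.027 to 0.34 and pdgfc from -0.10 to 0.21, and pdgfrb from -0.22 to 0.36 between ages in mutant. The cause was not tested. Of 232 log2 fold changes under the other alternatives 219 kept direction and call. Counts per library were at most 92.8 for pdgfaa and 70 for pdgfab, which limits their counting precision.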
